A study of Homo sapiens with 12 samples.

Results

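The retinoblastoma family of pocket proteins and the E2F transcription factors they bind were followed as 10 genes: RB1, RBL1 and RBL2, and E2F1, E2F2, E2F3, E2F4, E2F5, E2F7 and E2F8. They were taken by gene symbol from the 57133 gene names counted in every library, of which 30296 had at least 1 count in any library. Of the 10 members, 9 passed the filter on low counts and were tested. The member left out of the tests was E2F2, with a single read in all 12 libraries.

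The RNA came from MCF10-A, an immortalised human cell line of breast epithelium that does not form tumours, carrying a transgene under a doxycycline-inducible promoter. Of the 4 groups, the first expressed mVenus-p16 and was given Torin2, an inhibitor of the kinase mTOR, at 100 nM. The others expressed mVenus-p21, mVenus-p16 without Torin2, and the fluorescent protein mVenus alone. All groups received 50 ng/ml doxycycline, so induction itself was shared, and the culture protocol pairs DMSO with Torin2 as the other addition. The sample titles do not name DMSO. The times recorded for all groups are 20 h after seeding, 24 h after induction and 48 h for the medium change. The time in Torin2 is therefore not taken to be the full 5 days. Cells were collected on day 5, and the series text describes 3 biological replicates per group. Whether each line was a single clone or a pool is not given in the sources used here. Both p16 and p21 inhibit cyclin-dependent kinases, p16 acting on CDK4 and CDK6 and p21 on CDK2 complexes as well. The comparisons ask what 5 days of each did to the transcripts of the factors downstream of those kinases, and what Torin2 changed when p16 was present.

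In the textbook scheme, unphosphorylated RB1 holds the activating factors E2F1, E2F2 and E2F3, and cyclin-dependent kinases release them by phosphorylating RB1. The relatives p107, encoded by RBL1, and p130, encoded by RBL2, pair mainly with the repressive factors E2F4 and E2F5, and p130 with E2F4 forms part of the DREAM complex that silences cell cycle genes in resting cells. E2F7 and E2F8 are atypical E2Fs that bind DNA without a DP partner and repress E2F targets late in the cycle. E2F1, E2F2, E2F7, E2F8 and RBL1 are themselves classical E2F targets.

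Promoter sequences are shown for E2F1, RBL1 and E2F7, which were much lower with p16 or p21, and for E2F3 and E2F4, which moved little, so that the E2F motifs near their starts can be read beside their levels. Each run of 190 bases goes from 180 bases before to 10 bases after the RefSeq transcript start on GRCh38.p14, 5′ to 3′ on the gene's strand. Capitals mark matches, on either strand, to an E2F site (TTTCCCGC, TTTCGCGC, TTTGCCGC or TTTGGCGC), to the 7 bases of that site without its first T, or to a cell cycle homology region, CHR (TTTGAA or TTCGAA).
E2F1, chr20:33686376-33686565, minus strand: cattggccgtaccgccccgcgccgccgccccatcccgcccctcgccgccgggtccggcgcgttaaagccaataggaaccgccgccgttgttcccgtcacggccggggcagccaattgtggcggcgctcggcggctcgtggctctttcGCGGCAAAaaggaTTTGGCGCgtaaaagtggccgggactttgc
RBL1, chr20:37095988-37096177, minus strand: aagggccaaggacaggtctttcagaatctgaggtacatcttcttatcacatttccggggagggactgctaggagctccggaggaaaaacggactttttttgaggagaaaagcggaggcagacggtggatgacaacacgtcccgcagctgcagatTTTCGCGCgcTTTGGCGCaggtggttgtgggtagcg
E2F7, chr12:77065560-77065749, minus strand: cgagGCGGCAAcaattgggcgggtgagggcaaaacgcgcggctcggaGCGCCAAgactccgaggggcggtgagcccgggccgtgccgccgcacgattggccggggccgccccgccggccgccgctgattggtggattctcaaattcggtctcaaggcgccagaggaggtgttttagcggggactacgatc
E2F3, chr6:20401699-20401888, plus strand: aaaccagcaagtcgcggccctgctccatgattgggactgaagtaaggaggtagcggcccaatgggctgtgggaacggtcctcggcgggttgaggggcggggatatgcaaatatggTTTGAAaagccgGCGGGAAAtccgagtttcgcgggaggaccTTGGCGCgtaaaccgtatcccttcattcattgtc
E2F4, chr16:67191975-67192164, plus strand: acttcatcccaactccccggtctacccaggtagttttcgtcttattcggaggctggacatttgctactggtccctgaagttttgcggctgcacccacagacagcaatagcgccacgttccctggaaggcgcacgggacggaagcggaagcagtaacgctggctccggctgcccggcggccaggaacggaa

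E2F sites were found within 60 bases of the start in the windows of E2F1, RBL1 and E2F2 and in the first of 2 E2F3 windows. In the E2F1 window TTTGGCGC began at position -20 and TTTGCCGC lay on the opposite strand at -33. The RBL1 window held TTTCGCGC at -26 and TTTGGCGC at -16, separated by a pair of bases. In that first E2F3 window the opposite strand held TTTCCCGC at -53, with a CHR at -65 and a shorter core at -24. The second E2F3 window, whose start lies 1708 bases inside the GENCODE gene, held none of the motifs. Counts by gene name do not tell the 2 starts apart. The E2F2 window held TTTGGCGC at -42. E2F7 held only shorter cores, at -176 and -133 on the opposite strand, and E2F4 held none of the motifs. RBL2 had a CHR at 25 in the first of its 2 windows, which lies 494 bases inside the GENCODE gene, and no E2F site. For comparison, 3.31% of all 35116 RefSeq promoter windows of 300 bases held an E2F site, 13% held the shorter core, in which the full sites are included, and 16.4% held a CHR. The only RB1 window in the table starts a transcript 172724 bases inside the gene and was not used. E2F5 and E2F8 were named only.

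**Figure D1:**
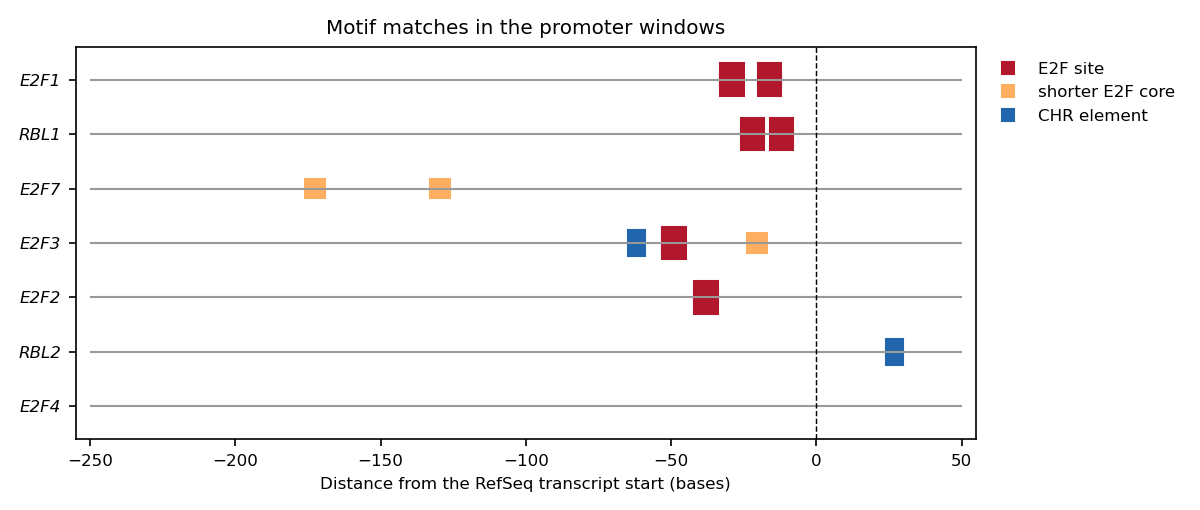
Positions of E2F sites (red), shorter E2F cores (orange) and CHR elements (blue) in the 300-base RefSeq promoter windows of 7 members, by distance from the transcript start in bases. E2F3 and RBL2 are each drawn by the first of their 2 windows. E2F1 and RBL1 each have 2 E2F sites just upstream of the start, while E2F7 has only shorter cores and E2F4 no match.

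Libraries held 13168749 to 18321114 counts, so 3 counts over the libraries of a group correspond to 0.0586 to 0.0659 CPM (counts scaled to library size), the level that a sum of 0 allows. Replicates correlated at 0.992 or more across tested genes, and no pair of replicates was as close as sampling noise alone would give (chi-square per degree of freedom 1.6 to 5.87). All 8 breast epithelial markers were detected in every group, and the leukocyte markers CD3E and TYROBP were at 0 counts in all 12 libraries. The 5 leukocyte markers summed to 51.1 to 55.6 CPM with p16 and Torin2, 108 to 110 CPM with p21, 114 to 127 CPM with p16 and 53.1 to 56.7 CPM with mVenus, nearly all of it CD14 and CSF1R. The endothelial and fibroblast markers summed to at most 4.28 and 10.6 CPM, and the part of these markers in the results was not tested. CDKN2A, the gene of p16, had 0 counts in all 12 libraries, those labelled p16 included, so the counts do not check that label. CDKN1A, the gene of p21, was at 888 ± 16.5 CPM with p21, 570 ± 30.1 CPM with p16 and 711 ± 12.9 CPM with mVenus (SD, n = 3 each), transgene and endogenous reads not being told apart. In bulk RNA, fewer cells with a transcript and less of it per cell cannot be told apart.

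Levels between genes were set side by side per length, as RPKM, which is CPM divided by kilobases of exon. In p16 cells RB1 and E2F4 were the highest members at 16.1 ± 1.55 and 15.2 ± 0.365 RPKM, a difference smaller than the SD of RB1, and E2F1 stood at 0.448 ± 0.129 RPKM (SD, n = 3 each). In mVenus cells RB1 was highest at 22.7 ± 0.685 RPKM, followed by E2F4 at 15.1 ± 0.147, and E2F1 at 9.29 ± 0.478 was level with E2F3 at 9.22 ± 0.713. RBL2 exceeded E2F3 per length in the p16 with Torin2 group (11.9 ± 0.126 against 9.21 ± 0.187 RPKM) and in p16 cells (9.41 ± 0.0573 against 8.39 ± 0.532 RPKM), whereas E2F3 exceeded RBL2 in mVenus cells (9.22 ± 0.713 against 7.13 ± 0.143 RPKM). Of the exonic bases of RBL2, 18.2% are shared with other genes, and reads there cannot be given to either gene, while E2F3 shares 0%. RPKM still divide by the full length, and the part of this in the order of RBL2 and E2F3 was not tested.

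**Figure D2:**
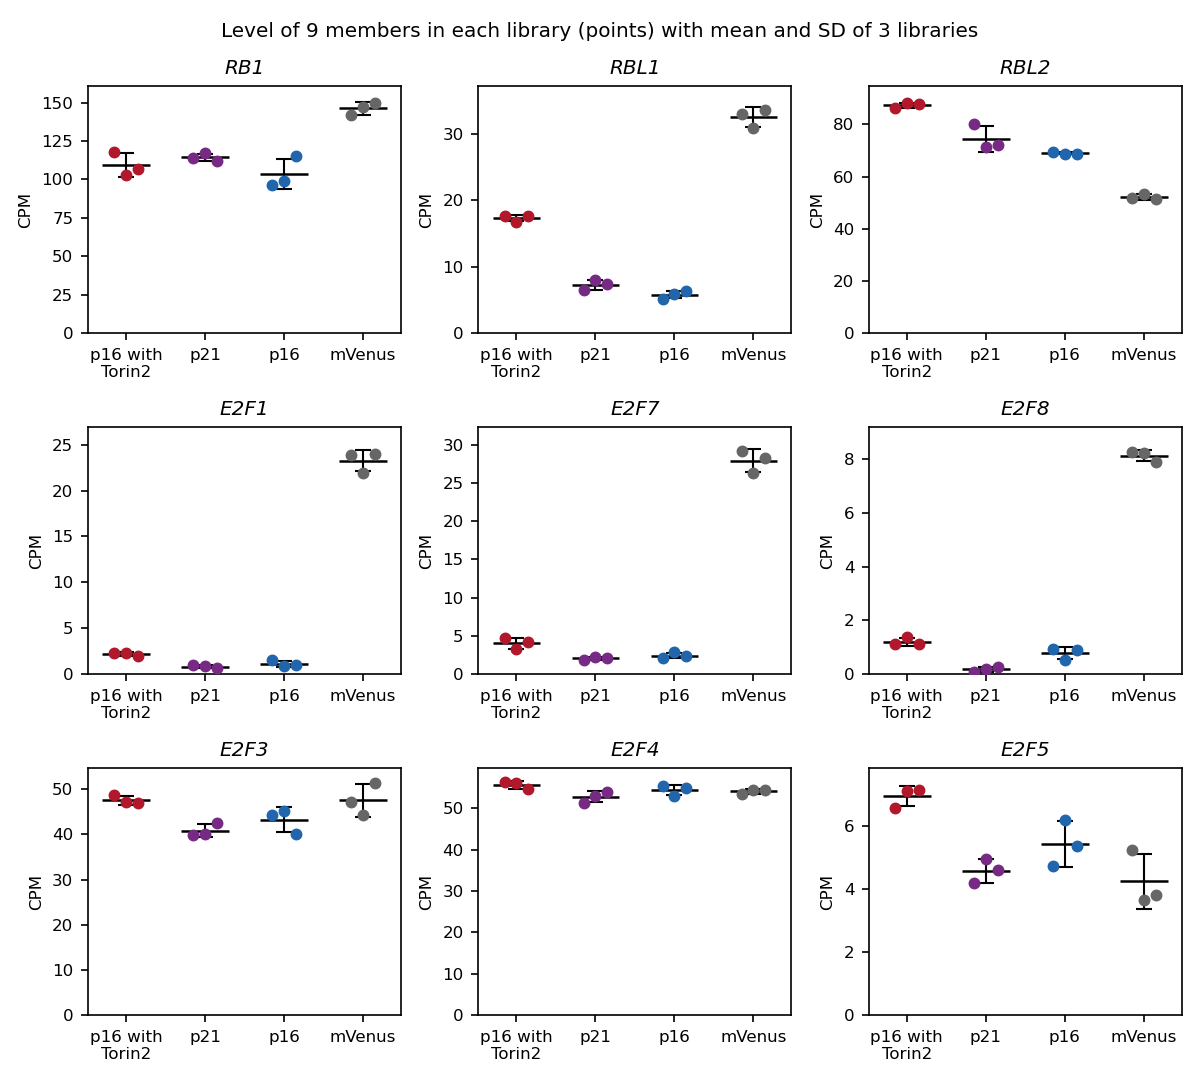
CPM of the 9 tested members in each library (points), with the mean and SD of the 3 libraries of each group (black), every axis starting at 0. E2F1, E2F7 and E2F8 are far lower in the 3 groups with p16 or p21 than with mVenus, RBL2 is higher in them, and E2F4 lies between 51.3 and 56.3 CPM throughout. RBL1 is far lower with p21 and with p16 alone, and at 53.1% of the mVenus level with p16 and Torin2.

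Among the pocket proteins, RBL1 and RBL2 moved in opposite directions when p16 or p21 was induced. RBL1, whose product p107 accumulates in cycling cells, was at 17.6, 16.8 and 17.7 CPM with p16 and Torin2, at 6.45, 7.98 and 7.45 CPM with p21, at 5.17, 5.86 and 6.29 CPM with p16, and at 33.1, 30.9 and 33.7 CPM with mVenus. The 4 groups did not overlap: mVenus was highest, p16 with Torin2 lay between, and p21 lay above p16. RBL1 was 5.67-fold lower with p16 than with mVenus (log2 fold change -2.50 ± 0.08 SE, adjusted p = 6.22e-16, edgeR quasi-likelihood test) and 4.46-fold lower with p21 (-2.16 ± 0.08, adjusted p = 4.93e-15). With Torin2 it rose 3.01-fold over p16 alone (1.59 ± 0.09, adjusted p = 9.42e-12), which left it at 53.1% of the mVenus level (-0.91 ± 0.07, adjusted p = 3.25e-10). With p21 it was 1.27-fold higher than with p16 (0.35 ± 0.11, adjusted p = 0.0114). That call was lost without p16 replicate 1 (adjusted p = 0.0708), without p21 replicate 2 (adjusted p = 0.0734) and in the DESeq2 Wald test (adjusted p = 0.0521).

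RBL2, whose product p130 is the pocket protein of resting cells, was at 86.3, 88.1 and 87.8 CPM with p16 and Torin2, at 80.1, 71.2 and 72.0 CPM with p21, at 69.3, 68.6 and 68.7 CPM with p16, and at 51.7, 53.4 and 51.5 CPM with mVenus. All 9 libraries with p16 or p21 lay above the 3 mVenus libraries, and the Torin2 libraries were the highest of all. RBL2 was 1.32-fold higher with p16 than with mVenus (0.40 ± 0.05, adjusted p = 3.83e-07), 1.43-fold higher with p21 (0.51 ± 0.05, adjusted p = 1.49e-08) and 1.68-fold higher with p16 and Torin2 (0.75 ± 0.05, adjusted p = 2.07e-11). With Torin2 it rose 1.27-fold over p16 alone (0.34 ± 0.05, adjusted p = 2.18e-06), while p21 and p16 differed by 0.11 ± 0.05 (adjusted p = 0.0553). That difference passed without p21 replicate 2 (0.14, adjusted p = 0.0315), without p21 replicate 3 (0.13, adjusted p = 0.0465) and with upper quartile scaling (0.12, adjusted p = 0.0396). Of the exonic bases of RBL2, 18.2% are shared with other genes, chiefly AKTIP on the opposite strand. AKTIP was at 13.5 CPM with p16 and Torin2, 33.6 CPM with p21, 28.3 CPM with p16 and 18.6 CPM with mVenus, so it rose with RBL2 in p16 and p21 against mVenus (1.52-fold, adjusted p = 2.27e-08, and 1.80-fold, adjusted p = 1.14e-10) and fell where RBL2 rose with Torin2. Its part in the RBL2 values was not tested.

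RB1, the retinoblastoma protein gene, changed less. It was at 118, 103 and 107 CPM with p16 and Torin2, at 114, 117 and 112 CPM with p21, at 96.7, 99.0 and 115 CPM with p16, and at 142, 147 and 150 CPM with mVenus. The mVenus libraries stood above all others, and the other 3 groups overlapped one another. RB1 was 1.41-fold lower with p16 than with mVenus (-0.50 ± 0.06, adjusted p = 1.74e-07), 1.28-fold lower with p21 (-0.35 ± 0.06, adjusted p = 2.04e-05) and 1.34-fold lower with p16 and Torin2 (-0.42 ± 0.06, adjusted p = 1.61e-06). The difference between p16 with Torin2 and p16 alone did not pass the test (0.08 ± 0.06, adjusted p = 0.255), though without p16 replicate 3 the value was 0.16 (adjusted p = 0.00923). The difference between p21 and p16 (0.15 ± 0.06, adjusted p = 0.0405) was lost when any of p16 replicate 1, p16 replicate 2, p21 replicate 1, p21 replicate 2 or p21 replicate 3 was left out (adjusted p between 0.0528 and 0.187). It was also lost in the DESeq2 Wald test (adjusted p = 0.0747).

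Among the activating E2Fs, E2F1 fell 10.7-fold to 28.4-fold in the groups with p16 or p21, while E2F3 stayed near its mVenus level. E2F1 was at 2.28, 2.26 and 1.96 CPM with p16 and Torin2, at 0.953, 0.866 and 0.636 CPM with p21, at 1.5, 0.921 and 0.947 CPM with p16, and at 23.9, 21.9 and 24.0 CPM with mVenus. The p21 and p16 libraries overlapped, the Torin2 libraries lay above both, and the mVenus libraries stood far above the rest. E2F1 was 20.5-fold lower with p16 than with mVenus (-4.36 ± 0.14, adjusted p = 3.69e-16) and 28.4-fold lower with p21 (-4.83 ± 0.15, adjusted p = 2.6e-16). By log2 fold change it was number 50 from the lowest of 14504 genes with p16 and number 66 with p21. With Torin2 it rose 1.91-fold over p16 alone (0.94 ± 0.21, adjusted p = 0.000775), to 9.33% of the mVenus level (-3.42 ± 0.13, adjusted p = 2.82e-15). The p21 and p16 groups differed by -0.47 ± 0.27 (adjusted p = 0.185), with 37 reads in the p21 group and 52 in the p16 group.

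E2F3 was at 48.7, 47.1 and 46.9 CPM with p16 and Torin2, at 39.9, 40.0 and 42.5 CPM with p21, at 44.4, 45.3 and 40.2 CPM with p16, and at 47.1, 44.2 and 51.5 CPM with mVenus. The p21 libraries lay below the mVenus and Torin2 libraries, and p16 overlapped both p21 and mVenus. E2F3 was 1.17-fold lower with p21 than with mVenus (-0.23 ± 0.06, adjusted p = 0.00306). With p16 the value was -0.14 ± 0.06 (adjusted p = 0.0462), and this call did not survive 13 of 18 alternatives, among them leaving out mVenus replicate 3 (-0.08, adjusted p = 0.294) or p16 replicate 3 (-0.09, adjusted p = 0.205). Between p16 with Torin2 and p16 alone it was 0.13 ± 0.06 (adjusted p = 0.0616), which passed without p16 replicate 2 (adjusted p = 0.0464) and without mVenus replicate 3 (adjusted p = 0.0473). It also passed with upper quartile scaling (0.17, adjusted p = 0.0245). E2F2, the remaining activator, had 0 reads in the p16 with Torin2, p21 and p16 groups and 1 read in mVenus replicate 1, so its levels could not be told from 0 and no fold is given. The E2F2 promoter window, with its E2F site at -42, is described above with those of E2F1 and E2F3.

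Of the repressive E2Fs that act with pocket proteins, E2F4 passed no test, with group means between 52.7 and 55.7 CPM. It was at 56.3, 56.1 and 54.6 CPM with p16 and Torin2, at 51.3, 53.0 and 53.9 CPM with p21, at 55.4, 53.0 and 54.9 CPM with p16, and at 53.4, 54.4 and 54.3 CPM with mVenus. Over the 6 comparisons the log2 fold changes of E2F4 went from -0.05 ± 0.04 (p21 over p16, adjusted p = 0.414) to 0.08 ± 0.04 (p16 with Torin2 over p21, adjusted p = 0.134). Its value was 0.01 ± 0.04 for p16 over mVenus (adjusted p = 0.84) and -0.03 ± 0.04 for p21 over mVenus (adjusted p = 0.536).

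E2F5, the close relative of E2F4, was at 6.57, 7.10 and 7.14 CPM with p16 and Torin2, at 4.18, 4.95 and 4.58 CPM with p21, at 4.73, 6.18 and 5.34 CPM with p16, and at 5.23, 3.65 and 3.81 CPM with mVenus. The Torin2 libraries lay above all others, which overlapped. E2F5 was 1.62-fold higher with p16 and Torin2 than with mVenus (0.70 ± 0.15, adjusted p = 0.000274) and 1.51-fold higher than with p21 (0.60 ± 0.15, adjusted p = 0.00129). Over p16 alone it was 1.28-fold higher (0.36 ± 0.14, adjusted p = 0.0371), a call that was lost in 6 of 18 alternatives, including those without p16 replicate 1 (0.26, adjusted p = 0.157), p16 replicate 3 (0.35, adjusted p = 0.0691), Torin2 replicate 2 (0.34, adjusted p = 0.0854) or Torin2 replicate 3 (0.34, adjusted p = 0.0853). The p16 and mVenus groups differed by 0.34 ± 0.15 (adjusted p = 0.0556), past the threshold without mVenus replicate 1 (0.53, adjusted p = 0.00659) or p16 replicate 1 (0.43, adjusted p = 0.027). It also passed with DESeq2 size factors (0.36, adjusted p = 0.0453) and without the filter on low counts (0.39, adjusted p = 0.0385). Of its exonic bases 18.6% are shared, mostly with C8orf59, which was also 1.40-fold higher with p16 and Torin2 than with mVenus (adjusted p = 0.000945). The part of C8orf59 in the E2F5 values was not tested.

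The atypical repressors E2F7 and E2F8 were both high in mVenus cells and low in every group with p16 or p21. E2F7 was at 4.68, 3.23 and 4.19 CPM with p16 and Torin2, at 1.83, 2.23 and 2.10 CPM with p21, at 2.06, 2.83 and 2.37 CPM with p16, and at 29.2, 26.3 and 28.3 CPM with mVenus. The p21 and p16 libraries overlapped, and the Torin2 libraries lay just above them. E2F7 was 11.6-fold lower with p16 than with mVenus (-3.53 ± 0.12, adjusted p = 7.1e-16) and 13.5-fold lower with p21 (-3.76 ± 0.12, adjusted p = 6.34e-16). With Torin2 it rose 1.67-fold over p16 alone (0.74 ± 0.17, adjusted p = 0.000698), to 14.4% of the mVenus level, and p21 and p16 differed by -0.22 ± 0.19 (adjusted p = 0.354).

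E2F8 was at 1.11, 1.36 and 1.11 CPM with p16 and Torin2, at 0.0733, 0.185 and 0.255 CPM with p21, at 0.934, 0.526 and 0.880 CPM with p16, and at 8.27, 8.24 and 7.89 CPM with mVenus. No 2 groups overlapped, with p21 the lowest. The p21 values rest on 8 reads (exact 95% Poisson interval 3.45 to 15.8 reads, counting error only), against 36 reads in the p16 group (25.2 to 49.8). E2F8 was 44.4-fold lower with p21 than with mVenus (-5.47 ± 0.27, adjusted p = 3.81e-13), number 42 from the lowest of all genes tested, and 10.3-fold lower with p16 (-3.37 ± 0.20, adjusted p = 8.01e-12). Between p21 and p16 the value was -2.11 ± 0.42 (adjusted p = 0.000208), but E2F8 passed the low-count filter only through libraries outside that comparison. In a fit of the p21 and p16 libraries alone it was filtered out and not tested. Torin2 over p16 alone gave 0.60 ± 0.27 (adjusted p = 0.0744), and p16 with Torin2 was at 14.7% of mVenus (-2.76 ± 0.19, adjusted p = 5.25e-11).

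**Figure D3:**
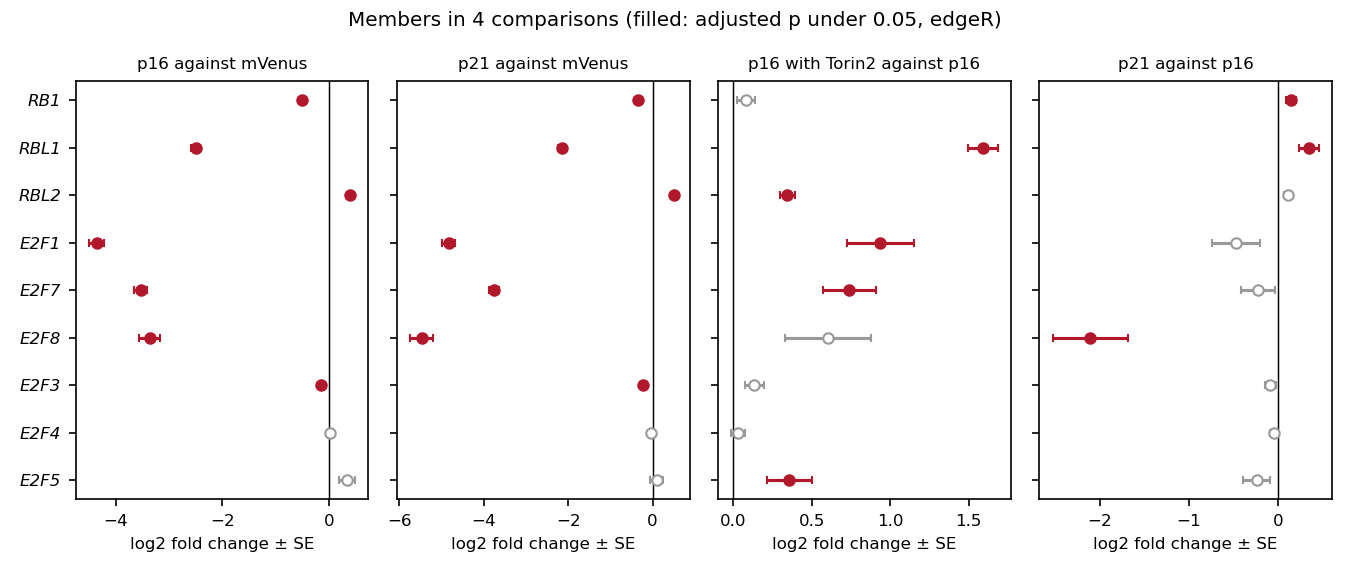
log2 fold change ± SE of the 9 tested members in 4 comparisons, first-named group over second (filled red, adjusted p under 0.05 in edgeR; open grey, not called), with a separate horizontal scale in each panel. E2F1, E2F7, E2F8 and RBL1 lie far to the left in both comparisons with mVenus, RBL1 leads the Torin2 panel at 1.59, and the E2F8 value of -2.11 in p21 against p16 rests on 8 reads in p21 and was not tested in a fit of those 6 libraries alone.

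Counted over the members, p16 against mVenus gave 1 higher and 6 lower of 9 tested, where 30.9% of all genes tested were higher and 32.8% lower at an adjusted p under 0.05. The count was also 1 higher and 6 lower for p21 against mVenus, where 28.2% and 28.3% of all genes were called, and 2 higher and 5 lower for p16 with Torin2 against mVenus, where 31.2% and 36.1% were. The higher shares of members were thus below those of all genes, and the lower shares above them. Against p16 alone, p16 with Torin2 had 5 members higher and 0 lower (all genes 30.3% and 29%), and against p21 it had 7 higher and 0 lower (all genes 33.2% and 33.3%). For those 2 counts of 0, an unadjusted p under 0.05 in edgeR and an adjusted p in DESeq2 also gave 0 lower members. In p21 against p16, 2 members were higher and 1 lower, where 27.2% and 27.2% of all genes were called, so that count was near the background. It was 0 higher and 1 lower in DESeq2, and in edgeR the higher count was 0 without p16 replicate 1 and 1 without p16 replicate 2, p21 replicate 1 or p21 replicate 2. Comparisons share libraries of mVenus, p16 or p21 and are not independent of one another.

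The median log2 fold change over the 9 members was -0.50 for p16 against mVenus, -0.35 for p21 against mVenus and 0.36 for p16 with Torin2 against p16, beside medians of -0.0036, -0.0037 and 0.02 over all genes tested. The medians against mVenus hide the split between members: RBL1, E2F1, E2F7 and E2F8 fell between 4.46-fold and 44.4-fold with p16 alone or p21, whereas RB1, E2F3, E2F4 and E2F5 had changes of at most 1.41-fold and RBL2 rose by at most 1.43-fold. With p16 and Torin2 against mVenus, E2F1, E2F7 and E2F8 fell between 6.78-fold and 10.7-fold and RBL1 1.88-fold, while RBL2 rose 1.68-fold and E2F5 1.62-fold.

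The make-up of both families, as shares of their summed RPKM, differed between the groups with p16 or p21 and mVenus. RBL1 made up 9.16% ± 0.236 of the pocket protein sum with p16 and Torin2, 4.21% ± 0.501 with p21, 3.67% ± 0.21 with p16 and 15.5% ± 0.721 with mVenus (SD, n = 3 each). RBL2 made up 37.6% ± 1.64 with p16 and Torin2, 34.9% ± 1.77 with p21, 35.7% ± 2.19 with p16 and 20.2% ± 0.624 with mVenus. The ratio of RBL1 to RBL2 per length was 0.244 ± 0.00851 with p16 and Torin2, 0.121 ± 0.02 with p21, 0.103 ± 0.0106 with p16 and 0.769 ± 0.0497 with mVenus, so RBL2 was ahead in all groups but least so with mVenus.

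Of the E2F sum, E2F4 took 56.1% ± 0.379 with p16 and Torin2, 61.1% ± 0.2 with p21, 59.6% ± 1.75 with p16 and 37.1% ± 1.39 with mVenus. E2F1 took 3.12% ± 0.211 with p16 and Torin2, 1.36% ± 0.301 with p21, 1.75% ± 0.472 with p16 and 22.8% ± 0.473 with mVenus. The ratio of E2F4 to E2F1 per length was 18 ± 1.2 with p16 and Torin2, 46.5 ± 11.3 with p21, 35.5 ± 8.34 with p16 and 1.63 ± 0.0966 with mVenus. The summed RPKM of the E2F members was 27.7 ± 0.475 with p16 and Torin2, 24.1 ± 0.632 with p21, 25.5 ± 0.521 with p16 and 40.7 ± 1.29 with mVenus. The larger share of E2F4 stood beside lower levels of E2F1, E2F7 and E2F8, its own level having passed no test.

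**Figure D4:**
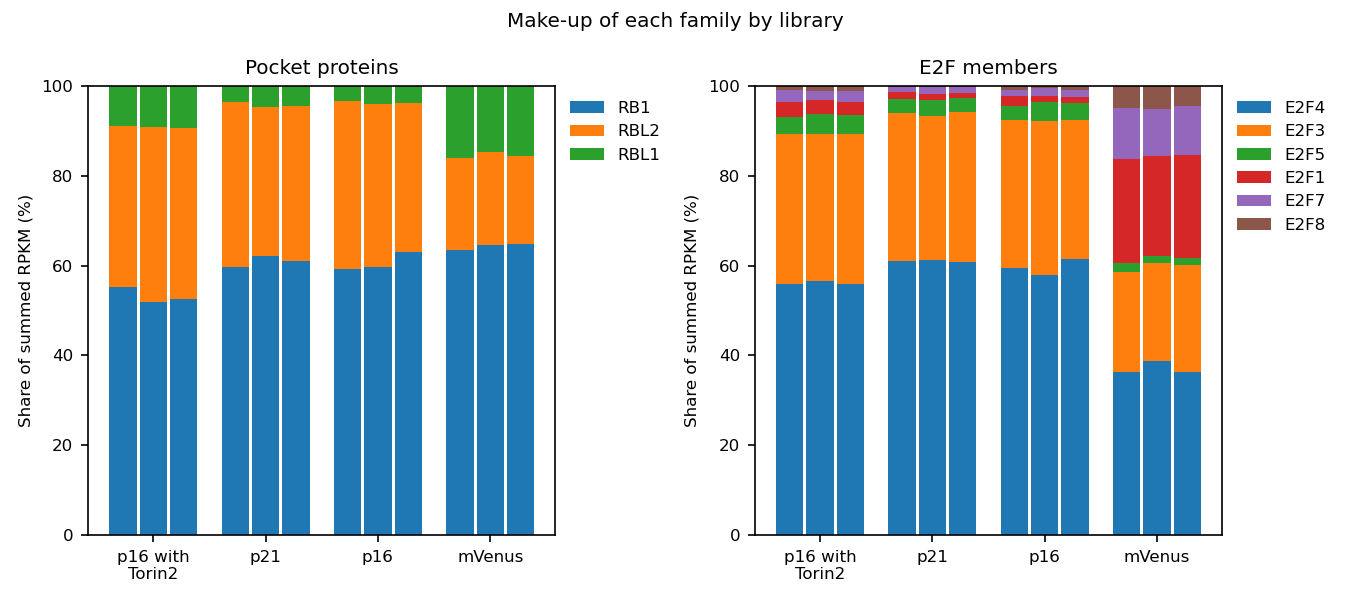
Share of each pocket protein gene (left) and each E2F gene (right) in the summed RPKM of its family, in percent, with 1 bar per library and 3 libraries per group; E2F2, with 1 read in all, is left out of the drawing. RBL1 takes 3.67% on average with p16 and 15.5% with mVenus, and E2F4 takes 61.1% with p21 and 37.1% with mVenus.

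E2F partners and E2F6 moved little or in their own way. TFDP1, the main DNA-binding partner of E2F1 to E2F6, was at 119 ± 3.28 CPM with p16 and Torin2, 127 ± 2.79 with p21, 134 ± 3.66 with p16 and 181 ± 2.85 with mVenus. Against mVenus it was lower with p16 and Torin2 (-0.60 ± 0.04, adjusted p = 1.73e-11), with p21 (-0.51 ± 0.04, adjusted p = 3.07e-10) and with p16 (-0.43 ± 0.04, adjusted p = 3.38e-09). TFDP2, the other DP partner, was 1.40-fold higher with p21 than with mVenus (0.48 ± 0.05, adjusted p = 3.29e-08) and 1.40-fold higher with p21 than with p16 (0.49 ± 0.05, adjusted p = 3.25e-08). E2F6, a repressor that acts without pocket proteins, was at 9.97 to 10.6 CPM on average and passed no test. TFDP3 was at 0 counts in all groups.

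Of the MuvB and DREAM complex list (8 genes tested), 0 were higher and 6 lower with p16 against mVenus, 0 higher and 7 lower with p21 against mVenus, and 5 higher and 1 lower with p16 and Torin2 against p16. In the same order, 30.9% of all genes tested were higher and 32.8% lower, 28.2% and 28.3%, and 30.3% and 29%. For the counts of 0, an unadjusted p under 0.05 and DESeq2 also gave 0. The median of the list was -0.65 for p16 against mVenus, -1.17 for p21 against mVenus and 0.38 for p16 with Torin2 against p16. In both comparisons with mVenus the largest falls were those of MYBL2, FOXM1 and MYBL1. The MuvB subunits changed less. With p16 against mVenus LIN9 was at -0.74, LIN54 at -0.56 and RBBP4 at -0.25, and LIN52 (-0.21) and LIN37 (-0.04) were not called. With p21 against mVenus LIN9 was at -1.21, LIN37 at -1.14, LIN54 at -0.65 and RBBP4 at -0.30, and LIN52 (0.10) was not called. LIN37 had 28 reads in the p21 group and 70 in the mVenus group, and 54% of its exonic bases are shared with other genes. MYBL2, the B-Myb factor that joins MuvB in cycling cells, was at 6.01 ± 0.249 CPM with p16 and Torin2, 0.587 ± 0.382 with p21, 2.58 ± 0.298 with p16 and 74.9 ± 0.966 with mVenus. It was 4.48-fold lower with p21 than with p16 (-2.16, adjusted p = 1.07e-06), with 26 reads in the p21 group and 119 in the p16 group. FOXM1, the mitotic transcription factor recruited through MuvB, was 11.4-fold lower with p16 (adjusted p = 7.89e-19) and 14.4-fold lower with p21 (adjusted p = 7.13e-19) than with mVenus, and with Torin2 it rose 2.10-fold over p16 alone (adjusted p = 1.39e-08). RBBP4, a histone-binding MuvB subunit, was the member of the list that fell with Torin2 (1.18-fold, adjusted p = 5.67e-05).

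Among the kinases and cyclins that phosphorylate pocket proteins, the cyclins moved in both directions with p16 or p21 against mVenus. Of 9 tested, 3 were higher and 5 lower with p16 against mVenus, and 2 higher and 6 lower with p21 against mVenus. Of all genes tested, 30.9% were higher and 32.8% lower with p16, and 28.2% higher and 28.3% lower with p21. The higher counts were thus near or below the shares of all genes, and the lower counts above them. All genes called higher in these comparisons were D-type cyclins. Of the kinases, CDK2 was 4.53-fold lower with p16 and 3.51-fold lower with p21. CDK6 was 1.52-fold and 1.39-fold lower in the same order, and CDK4 was not called. The D-type cyclin CCND2 was at 116 ± 1.16 CPM with p16 and Torin2, 157 ± 4.85 with p21, 185 ± 14 with p16 and 68.4 ± 6.71 with mVenus. CCND1, another D-type cyclin, was 1.32-fold higher with p16 (adjusted p = 5.07e-10) and 2.22-fold higher with p21 (adjusted p = 2.96e-17) than with mVenus, and 1.67-fold higher with p21 than with p16 (adjusted p = 3.91e-14). CCND3, the remaining D-type cyclin, was at 163 ± 9.46 CPM with p16 and Torin2, 197 ± 4.62 with p21, 299 ± 17 with p16 and 230 ± 11.6 with mVenus, so it was higher with p16 (adjusted p = 6.44e-07) and lower with p21 (adjusted p = 0.00069) than with mVenus. CCNA2, the S and G2 phase cyclin, was 14.5-fold lower with p16 and 23.1-fold lower with p21 than with mVenus, and with Torin2 it rose 3.05-fold over p16 alone (adjusted p = 1.27e-08). CCNE2, a cyclin E gene that E2F drives, was 19.6-fold lower with p16 and 33.3-fold lower with p21, with 37.1% of its exonic bases shared with other genes. It had 26 reads in the p16 group and 15 in the p21 group. CCNE1, the other cyclin E gene, was 1.64-fold lower with p16 (adjusted p = 1.28e-06) and 2.02-fold lower with p21 (adjusted p = 2.21e-08) than with mVenus.

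Among CDK inhibitors, CDKN2C, which encodes the CDK4 and CDK6 inhibitor p18, was at 2.82 ± 0.168 CPM with p16 and Torin2, 5.29 ± 0.504 with p21, 1.65 ± 0.311 with p16 and 21.1 ± 1.27 with mVenus. It was 3.18-fold higher with p21 than with p16 (1.67 ± 0.16, adjusted p = 1.88e-08), both groups lying below mVenus. CDKN1A was 2.20-fold lower with p16 and Torin2 than with p16 alone (adjusted p = 1.39e-14). Of the 5 inhibitors tested, 4 were lower and 0 higher with p16 against mVenus, with 0 higher also at an unadjusted p under 0.05 and in DESeq2, and 3 were lower and 1 higher with p21 against mVenus. Of all genes tested, 32.8% were lower and 30.9% higher with p16, and 28.3% lower and 28.2% higher with p21.

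The corepressors and chromatin proteins that pocket proteins recruit were mixed. Of 13 tested, 3 were higher and 4 lower with p16 against mVenus, 1 higher and 7 lower with p21 against mVenus, and 3 higher and 3 lower with Torin2 over p16 alone. Apart from the lower count with p21, these shares were near or below those of all genes given above. SUV39H1, a histone H3 lysine methyltransferase that binds RB1, was 1.74-fold lower with p16 (adjusted p = 1.15e-05) and 2.63-fold lower with p21 (adjusted p = 2.01e-08) than with mVenus. SMARCA2, an ATPase of the SWI/SNF remodelling complex, was 1.31-fold higher with p16 (adjusted p = 2.27e-07) and 1.38-fold higher with p21 (adjusted p = 1.98e-08) than with mVenus.

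Classical E2F target genes were lower with p16 or p21 than with mVenus in nearly every case. Of 34 tested from a list of 35, 0 were higher and 33 lower with p16 against mVenus, the same numbers were found with p21 against mVenus, and 0 were higher and 34 lower with p16 and Torin2 against mVenus. In the same order, 30.9% of all genes tested were higher and 32.8% lower, 28.2% and 28.3%, and 31.2% and 36.1%. The counts of 0 were also 0 at an unadjusted p under 0.05 and in DESeq2. The exception with p16 and p21 was SKP2, an F-box ubiquitin ligase subunit, at 24.9 ± 1.55 CPM with p16 and Torin2, 38.2 ± 1.23 with p21, 38.7 ± 3.22 with p16 and 38.0 ± 1.27 with mVenus. Against mVenus the median of the list was -2.11 with p16, -2.46 with p21 and -1.34 with p16 and Torin2. TK1, thymidine kinase of the nucleotide salvage route, was 39.4-fold lower with p16 and 77.4-fold lower with p21, and the replication factor MCM10 was 99.7-fold lower with p21. These folds rest on low counts. TK1 had 48 reads in the p16 group and 24 in the p21 group, and MCM10 had 10 reads in the p21 group.

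With Torin2, 29 of the 34 targets were higher than with p16 alone and 1, SKP2, was lower (median 0.76). Of all genes tested, 30.3% were higher and 29% lower. CDT1, which licenses replication origins, was 7.56-fold higher with p16 and Torin2 than with p16 alone (2.92 ± 0.14, adjusted p = 2.99e-13), and the checkpoint mediator CLSPN was 3.56-fold higher (1.83 ± 0.18, adjusted p = 3.67e-08). Both remained below mVenus: CDT1 was at 14.3 ± 1.32 CPM with p16 and Torin2 and 27.4 ± 1.32 CPM with mVenus, and CLSPN was at 5.20 ± 0.281 CPM with p16 and Torin2 and 46.4 ± 2.71 CPM with mVenus.

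Between p21 and p16, 19 targets were lower with p21, 6 were higher and 9 did not pass the test (median -0.39). Of all genes tested, 27.2% were lower and 27.2% higher. The helicase subunit MCM5 was 1.85-fold lower with p21 (-0.89 ± 0.09, adjusted p = 9e-08), and the sliding clamp PCNA was 1.34-fold higher (0.42 ± 0.07, adjusted p = 1.89e-05). Of the 47 promoter windows found for 30 of the 35 targets, 42.6% held an E2F site and 4.26% a CHR, beside 3.31% and 16.4% of all windows.

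**Figure D5:**
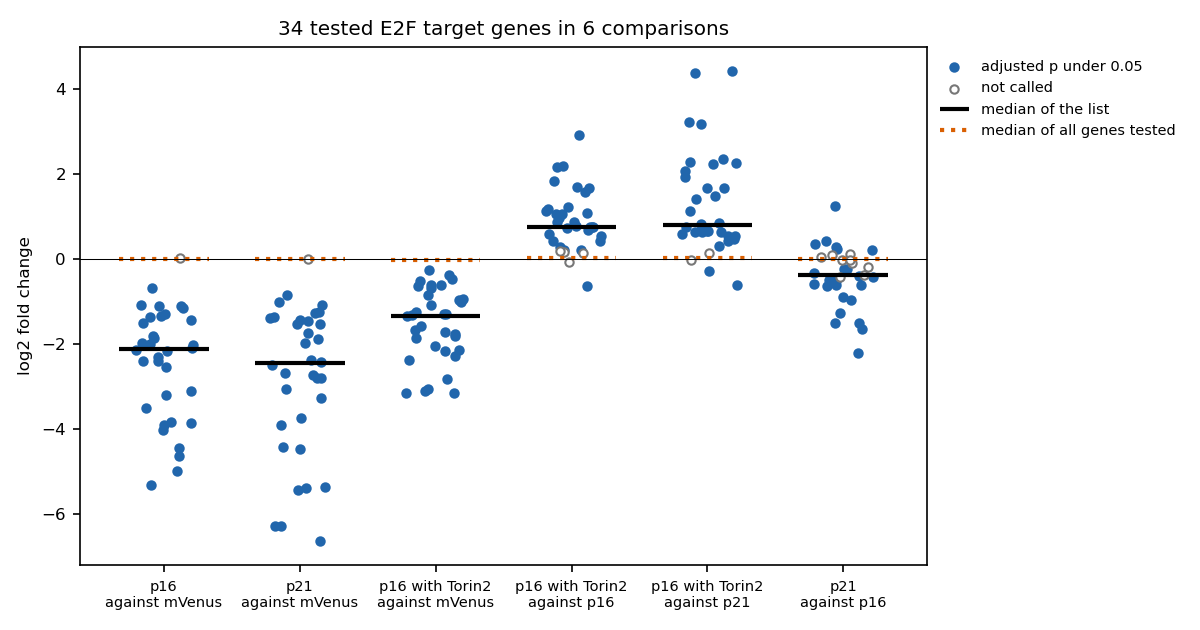
log2 fold change of each of the 34 tested E2F target genes in 6 comparisons, first-named group over second (blue, adjusted p under 0.05; open, not called), with the median of the list (black) and of all genes tested (dotted orange). The list lies below 0 in the comparisons with mVenus (medians -2.11, -2.46 and -1.34), above 0 with Torin2 against p16 or p21 (0.76 and 0.79) and slightly below 0 for p21 against p16 (-0.39).

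The genes with the pattern most like each member were taken by Pearson's r of log2 CPM over the 12 libraries, which fall into 4 groups of 3. For E2F1 these were DNMT1 (0.994) and KIF23 (0.993), for E2F7 ATAD2 (0.998) and SMC4 (0.995), and for E2F8 NCAPD3 (0.99) and DEPDC1B (0.99). RBL1 was most like MSH6 (0.995) and HMGB2 (0.993), and RBL2 most like CRTAP (0.987) and AC105285.1 (0.987). The likeness was looser for RB1, with C10orf67 (0.972) and GCLM (0.968), for E2F5, with NXT1 (0.948) and GTF2H3 (0.942), for E2F3, with AC025048.6 (0.946) and CHTOP (0.94), and for E2F4, with UQCRHL (0.913) and ZNF548 (0.91).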

How the data were processed

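Each of the 12 libraries came with a deposited table of counts, made by the authors with featureCounts 1.6.3 on GENCODE 29 exons and summed by gene name, per the file headers. No strand option was set, so a read over genes on both strands cannot be given to either. The submitters' processing notes also list FastQC 0.11.3, HISAT2, DESeq2 and the build GRCh38.p7. The authors also deposited 3 comparison tables with log2 fold changes and standard errors, a p-value and its adjusted value, a test statistic (a score) and a mean signal per gene. They were used only as a check: for the 9 members in each table, own DESeq2 log2 fold changes differed by at most 0.00354.

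filterByExpr kept 14504 genes, and library sizes were TMM-scaled. The quasi-likelihood test of edgeR 4.0.16 (R 4.3.3) was fitted to all 12 libraries at the same time, with 8 residual degrees of freedom. Each of 6 two-sided contrasts was adjusted by the Benjamini-Hochberg method over all genes tested, with a threshold of 0.05. CPM use TMM-scaled library sizes, and RPKM divide them by exonic length in the files. Likeness used log2 CPM with a prior count of 2. Counting limits used a floor of 3 counts. Simulated counts with known changes were used to test the code. Named genes were all members, E2F6, TFDP1 and TFDP2, and up to 2 rises and 2 falls per list and comparison. Those rises and falls had to be called, without overlap between the groups' libraries, and to reach a mean of 5 CPM. Some other values were given outside that rule, among them LIN37, LIN54, MYBL1 and CCNE1 against mVenus and MYBL2 in p21 against p16. The members and lists were chosen with earlier results of these data known. Alternatives were other scalings, no filter, DESeq2 1.42.0, only the 6 libraries compared, a replicate block and each library left out. Pseudogenes E2F3P1, E2F3P2 and E2F4P1 had 8, 3 and 0 counts over all libraries. Promoters are RefSeq windows of 300 bases (GRCh38.p14). Figures used matplotlib 3.10.9.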

Additional observations from a re-analysis of the deposited data

How the results depend on the processing

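Over 54 log2 fold changes of members and 18 settings, 922 of 971 values kept their direction and their side of the threshold. Of those that did not, 28 lost the call, 11 gained it and 10 changed sign, and 0 of the values that changed sign had been called. The cause was not tested. For p16 against mVenus, 2 members were higher with DESeq2 size factors and without the filter on low counts, and leaving out libraries gave 1 to 2. For p21 against p16, upper quartile scaling called 4 members, with 3 higher, DESeq2 called 1 member, with 0 higher, the fit of only the 6 libraries compared gave 0 lower because E2F8 was then filtered out, and leaving out libraries gave 1 to 3 called and 0 to 2 higher. E2F3 in p16 with Torin2 against mVenus (-0.0059) changed sign to 0.0044 with DESeq2 size factors, 0.0197 with upper quartile scaling, 0.0257 without the filter, 0.0021 in DESeq2 and 0.0249 in the fit of 6 libraries, and leaving out single libraries gave -0.0525 to 0.0562. E2F4 in p16 against mVenus ran from -0.0003 (without p16 replicate 1) to 0.0323 (without p16 replicate 2) with libraries left out, and it changed sign to 0.0087 in p21 against mVenus without the filter. Other scalings shifted the median of all genes by at most 0.0312.

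The replicate numbers did not pair the libraries: deviations of same-numbered libraries correlated at -0.082 to 0.075 in 18 pairs. With the replicate number as a block, E2F3 in p16 against mVenus was -0.14 (adjusted p = 0.0643), which left 6 members called there in place of 7, and no other member's call changed. Depth limits E2F2 and, in p21 cells, E2F8.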
